A study of Homo sapiens with 19 samples.

Results

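The 10 apolipoprotein genes described here (APOA1, APOA2, APOA5, APOB, APOC1, APOC2, APOC3, APOE, APOH and APOM) were taken by symbol from RNA-seq tables of 34825 genes, and all 10 were present in both tables. The cells were HepG2, a human liver cancer line used at low passage. In the INO80 experiment, cells were transfected with a control siRNA (NTG), or with siINO80#1 or siINO80#2, separate siRNAs against INO80, the ATPase of the INO80 chromatin remodelling complex (3 libraries per group, lettered A to C). In the drug experiment, cells received 1 µM EPZ-6438, an inhibitor of the Polycomb histone methyltransferase EZH2, or its solvent DMSO, from 3 days before transfection with NTG or with 1 siRNA against MCRS1 (siMCRS1), another subunit of the INO80 complex. This gave 2 libraries of DMSO NTG, 3 of DMSO siMCRS1, 3 of EPZ NTG and 2 of EPZ siMCRS1. All siRNAs were used at 50 nM, RNA was collected 72 h after transfection, and every group is therefore the same line after transfection, with no untransfected group and no second siRNA for MCRS1. Groups were compared within each experiment only.

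Apolipoproteins are the protein components of the particles that carry lipids in blood, and hepatocytes make most of them. APOB is the structural protein of very low density and low density lipoproteins. APOA1 and APOA2 are the main proteins of high density lipoprotein. The small exchangeable members act on the enzymes and receptors that clear triglyceride: APOC2 activates lipoprotein lipase, APOC3 slows clearance, APOA5 promotes it, and APOE is a ligand for receptors that take up lipoproteins. APOC1 also inhibits lipid transfer and clearance, APOM carries sphingosine phosphate, and APOH (beta-2-glycoprotein I) binds anionic phospholipids. APOA1, APOC3, APOA4 and APOA5 lie next to each other on chromosome 11, and APOE, APOC1, APOC4 and APOC2 on chromosome 19.

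The values are normalized counts, i.e., reads per gene divided by 1 size factor per library. Libraries held between 17093574 and 25369547 reads (INO80) and between 26038505 and 47397233 reads (drug), and a count of 3 reads corresponded to 2.30 to 3.58 and to 2.13 to 4.30 normalized counts. The 10 members held 1.68% to 2.91% and 1.41% to 2.30% of all reads. INO80 itself was at 48.1% of its control mean with siINO80#1 and at 36.4% with siINO80#2, and MCRS1 was at 7.99% with siMCRS1 in DMSO and at 7.93% in EPZ-6438. INO80 was also lower with siMCRS1, at 83.0% in DMSO (adjusted p = 0.0387) and 78.3% in EPZ-6438 (adjusted p = 0.00966). All 12 hepatocyte markers on the list were detected and tested, with summed levels of 362064 to 579255 normalized counts after INO80 or control siRNA and of 516656 to 907900.0 in the drug experiment. Of 4 leukocyte markers the sums were 19.1 to 40.0 and 13.2 to 45.2. Those of 7 macrophage or Kupffer cell markers were 686 to 1389 and 599 to 1612, although 6 and 5 of the 7 had a mean below 10 normalized counts. Among these, C1QA and C1QB were at 0 in every library of both experiments, which allows up to 3 reads per library. Sums of 7 stellate or fibroblast markers were 509 to 1457 and 762 to 3121, and of 5 endothelial markers 211 to 349 and 183 to 283. Of the endothelial markers, 4 and 3 had a mean below 10. Of 5 biliary markers, with sums of 21749.8 to 38792 and 33249.6 to 75982, KRT19, SOX9 and SPP1 were expressed. In the drug experiment KRT7 also had a mean of at least 10, and CFTR was at 0 in every library. The library siINO80#2 C stood apart from its replicates (Pearson r = 0.976 and 0.973 with A and B, against 0.986 between A and B), and MT-CO1 took 4.02% of its reads against 2.00% to 2.43% for the most abundant gene of the other libraries.

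Ranked by level per length in control cells, APOA2 was first and APOA5 last in both experiments. Normalized counts were divided by the length of the MANE Select transcript in GENCODE v44. In NTG cells of the INO80 experiment, APOA2 stood at 70239.5 ± 1999 normalized counts per kb (mean ± SD, n = 3). APOB followed at 23919 ± 3315, APOA1 at 19959 ± 3114 and APOH at 18794 ± 2459 per kb, and these neighbours in the order lay within their combined SDs. APOE was at 8009 ± 1699 per kb, below that group. APOC1 at 3489 ± 441, APOC3 at 2499 ± 827, APOM at 1731 ± 267 and APOC2 at 1226 ± 174 per kb came next, and of these only APOC1 and APOC3, and APOC3 and APOM, were within 1 SD of each other on either side. APOA5 was lowest at 282 ± 61.3 per kb. In the DMSO NTG libraries of the drug experiment the order was the same except that APOH (24187 ± 3567 per kb, n = 2) lay above APOA1 (22262 ± 5823 per kb), a difference within their SDs. Because its transcript is long, 14121 bases, APOB gave 76.6% to 81.6% of the summed normalized counts of the 10 members in NTG libraries, so that the members' share of all reads mainly follows APOB.

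In RefSeq annotation of GRCh38.p14, the build named for these data, APOA5 lies at chr11:116789367-116792420, APOC3 at chr11:116829907-116833072 and APOA1 at chr11:116835751-116837622, and the stretch from APOA5 to APOA1 spans 48.3 kb. APOE lies at chr19:44905796-44909393, APOC1 at chr19:44914325-44919346 and APOC2 at chr19:44946051-44949565, within 43.8 kb. The other members are single genes: APOA2 at chr1:161222292-161223628, APOB at chr2:21001429-21044073, APOM at chr6:31652404-31658210 and APOH at chr17:66212033-66229415. APOC2 shares its position with the readthrough transcript APOC4-APOC2 (chr19:44942238-44949565), which is a row of its own in both tables, and APOC2 took 24.8% to 43.4% of the reads of the pair, so that a division of reads between these rows underlies every APOC2 value.

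The promoter table held 7 of the 10 members. The 250 bases before the RefSeq start are printed for 4 of them, in lower case with motif matches in capitals. These 4 are also the ones with a motif match. All 7 were called in at least 1 comparison, so the choice of windows does not relate matches to calls. APOA5 and APOE had more than 1 window, and the window furthest upstream is printed. APOA5 (chr11:116792421-116792670, minus strand) is shown as a member that fell with every siRNA, APOC2 (chr19:44945801-44946050, plus strand) as one that fell with both INO80 siRNAs, APOA2 (chr1:161223629-161223878, minus strand) as the one that rose with them, and APOE (chr19:44905546-44905795, plus strand) as the one that rose with siMCRS1 in DMSO and with EPZ-6438 in NTG cells (all GRCh38.p14, 5′ to 3′ on the strand of the gene).
APOA5: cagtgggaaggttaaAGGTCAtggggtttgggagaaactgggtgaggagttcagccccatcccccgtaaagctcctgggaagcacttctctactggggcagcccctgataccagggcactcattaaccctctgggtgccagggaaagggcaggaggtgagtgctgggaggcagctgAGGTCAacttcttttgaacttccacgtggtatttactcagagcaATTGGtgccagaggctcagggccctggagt
APOC2: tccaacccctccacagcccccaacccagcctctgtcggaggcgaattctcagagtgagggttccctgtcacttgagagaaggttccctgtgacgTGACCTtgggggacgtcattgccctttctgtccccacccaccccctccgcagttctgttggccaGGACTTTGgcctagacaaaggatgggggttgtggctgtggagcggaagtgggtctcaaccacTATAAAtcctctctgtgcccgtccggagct
APOA2: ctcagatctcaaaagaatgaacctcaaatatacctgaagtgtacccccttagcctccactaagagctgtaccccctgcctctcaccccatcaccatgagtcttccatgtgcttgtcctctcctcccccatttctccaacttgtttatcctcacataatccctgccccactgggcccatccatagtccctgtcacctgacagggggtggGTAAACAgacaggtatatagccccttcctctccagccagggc
APOE: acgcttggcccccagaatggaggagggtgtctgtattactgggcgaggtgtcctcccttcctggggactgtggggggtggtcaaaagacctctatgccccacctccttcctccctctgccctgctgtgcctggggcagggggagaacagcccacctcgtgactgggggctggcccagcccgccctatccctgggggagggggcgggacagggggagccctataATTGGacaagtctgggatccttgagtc
The motifs searched on both strands were the TATA box spelled TATAAA, the box that NFY binds spelled CCAAT, the half-site of many nuclear receptors spelled AGGTCA, the part of the HNF4 motif spelled CAAAGTCC and the forkhead core spelled TGTTTAC. The APOA5 window held AGGTCA at 235 and at 74 bases before the start and CCAAT on the opposite strand at 30. The APOC2 window held TATAAA at 30 bases before the start, and AGGTCA at 156 and CAAAGTCC at 92 on the opposite strand. The APOA2 window held TGTTTAC on the opposite strand at 42 bases and the APOE window CCAAT on the opposite strand at 27. Of the windows not printed, that of APOA5 held AGGTCA at 156 bases and an APOE window CCAAT on the opposite strand at 202. No match overlapped another. Among 35116 RefSeq promoter windows of the same length, 10.7% held TATAAA, 32.0% CCAAT, 12.1% AGGTCA, 1.02% CAAAGTCC and 2.98% TGTTTAC. The windows of APOM, APOH and APOC1 held none of the 5 motifs. Those of APOM (chr6:31655644-31655893) and APOC1 (chr19:44914422-44914671) lie within the gene spans given above. They are therefore not the bases before the outer start of these genes, which were not searched. A match describes the letters only, and no binding was measured in these libraries.

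The comparison of each INO80 siRNA with NTG asks how the apolipoprotein genes respond to loss of the remodeller. With siINO80#1, APOC3 and APOA5 fell by several fold, APOC2 fell slightly and APOA2 rose slightly. In all, 4 of 10 members passed the threshold (adjusted p under 0.05, limma across all genes tested), where 41.6% of all genes did (with the replicate letter as a block 6 members, and 6327 genes over all in place of 5833). Of the 4, 1 was higher, against 20.7% of all genes, and 3 were lower, against 20.8%. With siINO80#2, 7 of 10 were called against 55% of all genes, 1 higher (26.6% of all genes) and 6 lower (28.4%). The median log2 fold change of the 10 members was -0.18 with siINO80#1 and -0.90 with siINO80#2, and that of all genes tested 0.00 in both. Both siRNAs are set against the same NTG libraries. Groups did not overlap for 6 members with siINO80#1 (57.2% of all genes tested), 7 with siINO80#2 (61.3%) and 7 between the siRNAs (38.8%). In bulk RNA, fewer cells expressing a gene and less RNA per cell cannot be told apart. Whether libraries of a group came from separate cultures is not stated, so p-values measure the spread between these libraries.

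**Figure D1:**
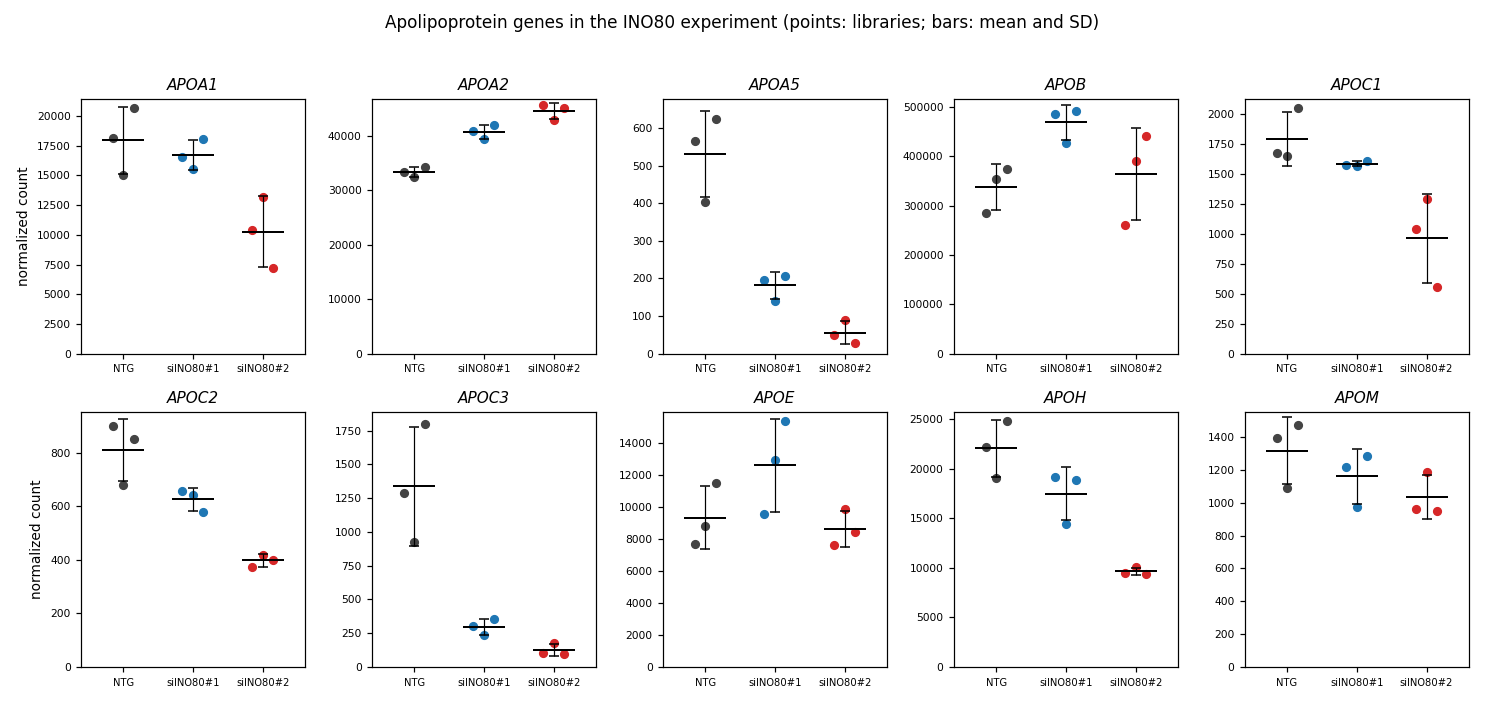
Normalized count (vertical axis, from 0) of each of the 10 genes in the 9 libraries of the INO80 experiment, with 1 point per library and bars for the mean and SD (n = 3). APOC3 and APOA5 step down from NTG to siINO80#1 to siINO80#2, whereas APOA2 lies higher in both siRNA groups and APOB and APOE overlap between NTG and siINO80#2.

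APOC3, the inhibitor of triglyceride clearance, and APOA5 showed the largest changes of the family with either INO80 siRNA. The normalized counts of APOC3 were 1287, 922 and 1802 in NTG A, B and C. With siINO80#1 they were 304, 236 and 355, and with siINO80#2 107, 174 and 93.5. The 3 groups did not overlap, with siINO80#2 lowest throughout. The log2 fold change was -2.13 ± 0.27 (SE, adjusted p = 0.000142) with siINO80#1, a mean at 22.3% of control, and -3.41 ± 0.27 (SE, adjusted p = 3.18e-06) with siINO80#2, at 9.32% of control. The difference between the siRNAs was itself called, -1.29 ± 0.27 (SE, adjusted p = 0.00771).

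APOA5, the least abundant member and a promoter of triglyceride clearance, behaved alike. It was at 565, 402 and 625 normalized counts in NTG. It was at 197, 141 and 207 with siINO80#1 and at 49.4, 88.8 and 28.3 with siINO80#2. Again the groups were separate, and siINO80#2 C held the lowest value, well above the level of 3 reads. Log2 fold changes were -1.54 ± 0.34 (SE, adjusted p = 0.00437) and -3.36 ± 0.34 (SE, adjusted p = 1.56e-05), leaving 34.2% and 10.5% of the control mean, and siINO80#2 was lower than siINO80#1 by -1.82 ± 0.34 (SE, adjusted p = 0.00432).

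APOA1, whose nearer end lies 2.68 kb from APOC3, changed far less. Its counts were 18167, 15038 and 20625 in NTG, 16555, 15522 and 18076 with siINO80#1 and 10360.0, 13207 and 7237 with siINO80#2. The first 2 groups overlapped, while every siINO80#2 library lay below both. With siINO80#1 the log2 fold change was -0.09 (95% interval -0.51 to 0.33, adjusted p = 0.729), and with siINO80#2 it was -0.84 ± 0.19 (SE, adjusted p = 0.00342). Within a library, APOC3 stood at 7.32 ± 1.32 (SD, n = 3) per 100 normalized counts of APOA1 in NTG, at 1.77 ± 0.229 with siINO80#1 and at 1.21 ± 0.160 with siINO80#2. This within-library ratio does not depend on the size factors, and its ranges in NTG and in either siRNA group were separate. APOA5 per 100 counts of APOA1 was 2.94 ± 0.232, 1.08 ± 0.152 and 0.514 ± 0.144 in the same groups.

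APOA2, the other main protein of high density lipoprotein, was the only member called higher with an INO80 siRNA in the fit without a replicate block. Its counts were 33280.0, 32353 and 34248 in NTG, 40813, 39391 and 41898 with siINO80#1 and 45643, 42801 and 45097 with siINO80#2. The spread was narrow and NTG lay below every siRNA library. Log2 fold changes were 0.29 ± 0.08 (SE, adjusted p = 0.0176) and 0.42 ± 0.08 (SE, adjusted p = 0.00155). The call with siINO80#1 was lost without siINO80#1 A (0.29 (adjusted p = 0.0545)), without siINO80#1 C (0.27 (adjusted p = 0.0719)), without NTG A (0.29 (adjusted p = 0.0545)) and without NTG B (0.27 (adjusted p = 0.0598)). It was also lost under equal totals (0.0756), quantile normalization (0.0550) and no filter on low values (0.0586, all adjusted p), and the one with siINO80#2 under quantile normalization (0.17 (adjusted p = 0.111)).

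APOC1, APOC2 and APOH were lower with siINO80#2 than with siINO80#1. APOC2, the cofactor of lipoprotein lipase, was at 898, 679.6 and 849.6 in NTG, 658, 643 and 577 with siINO80#1 and 372, 419 and 401 with siINO80#2. These groups were separate. Its log2 fold changes were -0.36 ± 0.11 (SE, adjusted p = 0.0225) and -1.02 ± 0.11 (SE, adjusted p = 2.40e-05). The call with siINO80#1 was lost when APOC2 was summed with APOC4-APOC2 (-0.12 (adjusted p = 0.404)), without NTG A (-0.28 (adjusted p = 0.0939)), without NTG C (-0.32 (adjusted p = 0.0829)) and without siINO80#1 C (-0.30 (adjusted p = 0.0900)), whereas the sum stayed lower with siINO80#2 (-0.68 (adjusted p = 0.000231)).

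APOC1 was at 1676, 1649.6 and 2054 in NTG, 1579.8, 1571 and 1613 with siINO80#1 and 1041, 1295 and 559 with siINO80#2. Only siINO80#2 gave a call, -0.97 ± 0.24 (SE, adjusted p = 0.00533), against -0.17 ± 0.24 (SE, adjusted p = 0.611) with siINO80#1. The neighbouring pseudogene APOC1P1, at a control mean of 68.6 normalized counts, resembles APOC1 in sequence, and a division of reads between the 2 is uncertain. APOH was at 22244, 19091 and 24857 in NTG, 19191, 14409 and 18921 with siINO80#1 and 9501, 10092 and 9388 with siINO80#2. The siINO80#2 libraries were tightly grouped at less than any other library, with a log2 fold change of -1.18 ± 0.13 (SE, adjusted p = 2.15e-05), and siINO80#1 gave -0.34 ± 0.13 (SE, adjusted p = 0.0531). NTG and siINO80#1 libraries of the same letter deviated together, and with the letter as a block the change of APOH with siINO80#1 was called (adjusted p = 0.0350), as it was with equal totals or quantile normalization (adjusted p = 0.0278 and 0.0347).

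APOB, APOE and APOM were not called with either INO80 siRNA in the fit without a replicate block. APOB was at 285051, 353748 and 374492 in NTG, 485977, 428116 and 492673 with siINO80#1 and 261092, 391058 and 441099 with siINO80#2. All siINO80#1 libraries were above NTG, while siINO80#2 A lay below it. The log2 fold changes of APOB were 0.48 (95% interval -0.03 to 0.99, adjusted p = 0.118) and 0.08 (-0.42 to 0.59, adjusted p = 0.776). For APOE, at 7679, 8804 and 11532 in NTG, 9559, 12922 and 15361 with siINO80#1 and 7606, 9851 and 8417 with siINO80#2, they were 0.43 (0.02 to 0.84, adjusted p = 0.0885) and -0.10 (-0.51 to 0.31, adjusted p = 0.665). With the letter as a block APOE was called higher with siINO80#1 (adjusted p = 0.0179), and siINO80#1 was above NTG in each of the 3 letters. In a fit of NTG and siINO80#1 only, APOB was called higher (adjusted p = 0.0216). APOM, at 1395, 1087 and 1469.8 in NTG, gave -0.18 (-0.50 to 0.13, adjusted p = 0.335) and -0.35 (-0.66 to -0.03, adjusted p = 0.0585), the latter called with equal totals (-0.46 (adjusted p = 0.0302)).

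The siRNAs against INO80 differed from each other. Between siINO80#2 and siINO80#1, 6 of 10 members were called, against 22.1% of all genes. All 6 (APOA1, APOA5, APOC1, APOC2, APOC3 and APOH) were lower with siINO80#2, against 12.6% of all genes, and 0 were higher, against 9.48%. The members' median log2 difference was -0.70, and INO80 itself was lower with siINO80#2 by -0.40 ± 0.08 (SE, adjusted p = 0.00577). APOA1, APOA5, APOC1, APOC3, APOH and APOM had their lowest values in siINO80#2 C, the library that stood apart. Without it, siINO80#2 against NTG still gave 7 calls of members, beside 7536 over all genes (7725 with it). The log2 fold changes were then -3.23 (adjusted p = 8.86e-06) for APOC3, -2.96 (adjusted p = 1.06e-05) for APOA5, -0.61 (adjusted p = 0.00408) for APOA1, -0.62 (adjusted p = 0.000913) for APOC1, -1.02 (adjusted p = 6.09e-05) for APOC2, -1.16 (adjusted p = 5.97e-05) for APOH and 0.41 (adjusted p = 0.00108) for APOA2. The difference between the siRNAs then still gave 6 calls of members, beside 2958 over all genes (3096 with siINO80#2 C). Among the 6 were APOA1 at -0.51 (adjusted p = 0.0266) and APOC1 at -0.45 (adjusted p = 0.0177). The APOC1 difference was lost without siINO80#1 A, B or C or without siINO80#2 A (adjusted p = 0.0877, 0.0844, 0.0888 and 0.0502), with equal totals, without the trend and in a fit of those groups only (adjusted p = 0.0630, 0.0752 and 0.0694), and the APOA1 difference without siINO80#1 A or C (adjusted p = 0.0549 and 0.0661). Of 12 hepatocyte markers, 1 was lower with siINO80#1 (HNF4A, log2 fold change -0.45), against 20.8% of all genes. With siINO80#2 6 of 12 were lower (median of the 12 -0.38), against 28.4% of all genes, including HNF4A at -1.02, TF at -0.98 and ALB at -0.57. The biliary marker KRT19 was higher, at 0.70 and 1.43, and SPP1 lower, at -0.94 and -0.69. Their part in the result was not tested.

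The comparison of siMCRS1 with NTG asks how these genes respond to loss of MCRS1, in DMSO and in EPZ-6438. MCRS1 also belongs to the NSL complex, so a change with siMCRS1 cannot be assigned to either complex. APOC3 and APOA5 again fell by several fold, in both conditions. APOE rose in DMSO, and APOM and APOA2 fell in EPZ-6438. In DMSO 3 of 10 members were called against 47.7% of all genes, 1 higher (23.1% of all genes) and 2 lower (24.6%). In EPZ-6438 4 of 10 were called against 53.7%, 0 higher (26.8%) and 4 lower (26.9%). Members' medians were -0.20 and -0.26, those of all genes tested 0.00 and 0.01. Groups did not overlap for 4 members in DMSO (66.8% of all genes tested) and 6 in EPZ-6438 (69.1%).

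**Figure D2:**
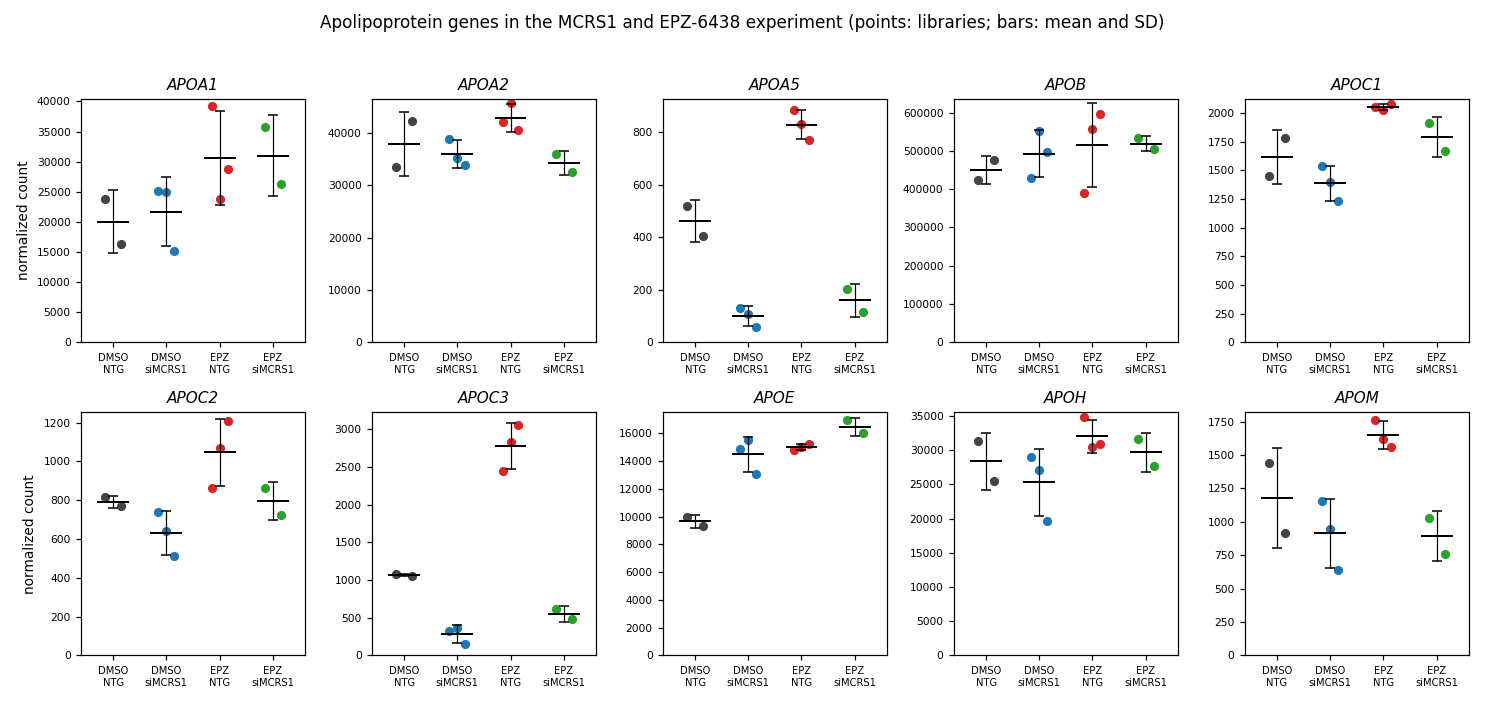
Normalized count (vertical axis, from 0) of each of the 10 genes in the 10 libraries of the drug experiment, with 1 point per library and bars for the mean and SD (n = 2 or 3). APOC3 and APOA5 are low in both siMCRS1 groups and highest in EPZ NTG, and APOE is lowest in DMSO NTG.

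APOC3 was at 1080.0 and 1058 normalized counts in DMSO NTG and at 327, 370.1 and 150.4 in DMSO siMCRS1. In EPZ-6438 it was at 2448, 2830.3 and 3054 with NTG and at 623 and 479 with siMCRS1. Every siMCRS1 library lay below every NTG library, whatever the drug. The log2 fold changes were -2.02 ± 0.31 (SE, adjusted p = 0.000423) in DMSO and -2.34 ± 0.31 (SE, adjusted p = 0.000124) in EPZ-6438, with 26.4% and 19.8% of the NTG mean left.

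APOA5 followed the same order of groups, at 519.9 and 406 in DMSO NTG and 132, 108 and 58.7 in DMSO siMCRS1. In EPZ-6438 it was at 883, 833 and 771 with NTG and 205 and 115 with siMCRS1. Here too no siMCRS1 library reached an NTG library. The log2 fold changes were -2.27 ± 0.32 (SE, adjusted p = 0.000278) and -2.42 ± 0.32 (SE, adjusted p = 0.000133). Across the 4 siRNA comparisons, APOA5 and APOC3 were the members called lower in each. APOA1 was not called with siMCRS1, with log2 fold changes of 0.10 (95% interval -0.49 to 0.70) and 0.03 (-0.57 to 0.63). APOC3 per 100 counts of APOA1 went from 5.52 ± 1.37 (SD, n = 2) in DMSO NTG to 1.26 ± 0.247 (n = 3) in DMSO siMCRS1, and from 9.56 ± 2.94 (n = 3) to 1.78 ± 0.0571 (n = 2) in EPZ-6438.

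APOE was at 9979 and 9345 in DMSO NTG and 14864, 15534 and 13085 in DMSO siMCRS1. It was at 14790.1, 15057 and 15262 in EPZ NTG and 16956 and 16041 in EPZ siMCRS1. The DMSO NTG libraries were the lowest of the 10. In DMSO the log2 fold change with siMCRS1 was 0.58 ± 0.10 (SE, adjusted p = 0.000762), and it was called under all 19 alternatives. In EPZ-6438 it was 0.13 ± 0.10 (SE, adjusted p = 0.276). The difference between these effects was -0.45 ± 0.14 (SE), with an unadjusted p from limma of 0.00813 and an adjusted p of 1.00.

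APOM, the sphingosine phosphate carrier, was at 1441 and 915 in DMSO NTG and 1155, 947 and 642 in DMSO siMCRS1. It was at 1765, 1617 and 1563 in EPZ NTG and 1026 and 761 in EPZ siMCRS1. The groups overlapped in DMSO and were separate in EPZ-6438, with log2 fold changes of -0.37 ± 0.25 (SE, adjusted p = 0.243) and -0.90 ± 0.25 (SE, adjusted p = 0.0104). The call in EPZ-6438 was lost without EPZ siMCRS1 B (-0.68 (adjusted p = 0.110)). APOA2 was at 42243, 45861 and 40585 in EPZ NTG and 35956 and 32640.1 in EPZ siMCRS1, a log2 fold change of -0.32 ± 0.13 (SE, adjusted p = 0.05) that only just passed the threshold. It was lost without either EPZ siMCRS1 library (-0.39 without A, adjusted p = 0.0809, and -0.25 without B, adjusted p = 0.271), without any 1 EPZ NTG library (adjusted p = 0.0681, 0.125 and 0.0583) and without any 1 DMSO siMCRS1 library (adjusted p = 0.0592, 0.0649 and 0.0551). A pseudocount of 5, lower or no filters, a fit without the trend and a fit of those groups only ended it too (adjusted p = 0.0522 to 0.105).

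APOB, APOC1, APOC2 and APOH were not called with siMCRS1 in either condition. APOB ranged from 389888 to 596123 normalized counts over the 10 libraries, and its log2 fold changes were 0.12 (95% interval -0.34 to 0.58) and 0.04 (-0.42 to 0.50). APOC1 gave -0.22 (-0.50 to 0.06) and -0.20 (-0.48 to 0.07), and APOH -0.18 (-0.55 to 0.19) and -0.11 (-0.48 to 0.26). APOC2 gave -0.34 (-0.73 to 0.05) and -0.39 (-0.78 to 0.01). Summed with APOC4-APOC2 it was called lower in EPZ-6438 (-0.44 (adjusted p = 0.0122)) and not in DMSO (-0.13 (adjusted p = 0.407)), and APOC2 alone was called in EPZ-6438 without EPZ NTG 1 (-0.52 (adjusted p = 0.0318)). Scaling moves these values. With libraries set to equal totals the median of all genes tested shifted to -0.23 in both siMCRS1 comparisons and the share of higher genes among those called went from 48.4% to 27.1% in DMSO and from 50.0% to 30.2% in EPZ-6438. APOC1 and APOC2 were then called lower in both, and APOH in DMSO, with members' counts of 1 higher and 5 lower in DMSO and 0 higher and 6 lower in EPZ-6438. Over all genes 6992 and 7609 were then called, against 6830 and 7686 in the main fit. Under quantile normalization APOH was called lower in both (-0.55 (adjusted p = 0.0122) and -0.43 (adjusted p = 0.0334)) and APOA2 in DMSO (-0.41 (adjusted p = 0.0247)), with 1 higher and 4 lower in DMSO and 0 higher and 6 lower in EPZ-6438. There 6466 and 7251 genes over all were called. Equal totals moved the median by -0.08 for siINO80#1 and -0.11 for siINO80#2, with 39.8% in place of 49.9% and 38.7% in place of 48.3% of called genes higher. Hepatocyte markers were lower in 2 of 12 in each siMCRS1 comparison (among them HNF4A at -0.55 and -0.55), against 24.6% of all genes in DMSO and 26.9% in EPZ-6438. ALB was higher in EPZ-6438 (0.57), and KRT19 (0.97 and 0.76) and SPP1 (0.83 and 0.53) were higher. Their part in the result was not tested.

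**Figure D3:**
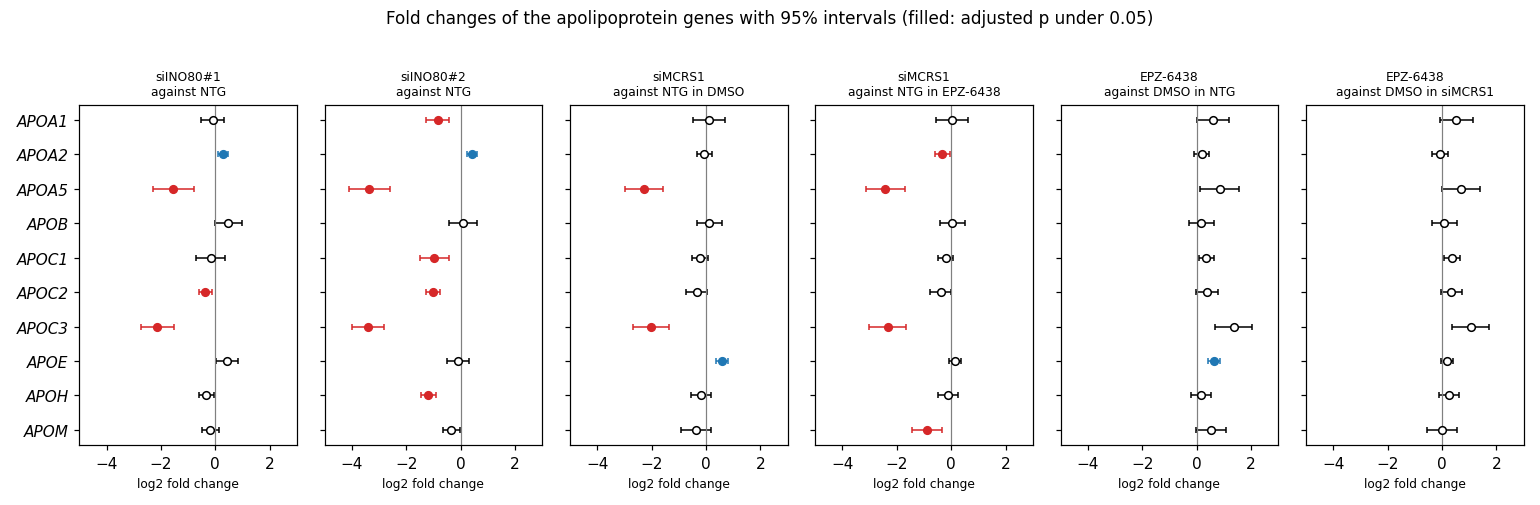
Log2 fold change (horizontal axes) of the 10 genes with 95% intervals in 6 comparisons, with filled points for adjusted p under 0.05 (red lower, blue higher). APOA5 and APOC3 lie left of -1 in all 4 siRNA comparisons, and all 10 points lie right of 0 for EPZ-6438 in NTG cells.

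The comparison of EPZ-6438 with DMSO asks whether the EZH2 inhibitor alters these genes, and it uses the same libraries as the siMCRS1 comparisons. In NTG cells 1 of 10 members was called, APOE, which was higher, against 0.384% of all genes called, 0.321% higher and 0.0629% lower. All 10 log2 fold changes were above 0, with a median of 0.45 against -0.03 over all genes tested, and 5 had an unadjusted p under 0.05, as did 2443 of the 14312 genes tested. Groups did not overlap for 7 members (33.4% of all genes tested). In the same comparison the median was 0.42 for the 12 hepatocyte markers and 0.48 for 16 lipoprotein remodelling enzymes and inhibitors. Their part in the result was not tested. APOE was at 156% of its DMSO mean, 0.64 ± 0.10 (SE, adjusted p = 0.0298), with no overlap of the 2 and 3 libraries given above. Leaving out any 1 of those 5 libraries ended the call (adjusted p = 0.217 without DMSO NTG 1, 0.201 without DMSO NTG 3, and 0.0527, 0.0555 and 0.140 without EPZ NTG 1, 2 and 3), as did no filter on low values (0.0544) and a fit without the trend (0.0656). The largest value was that of APOC3, 1.37 ± 0.31 (SE, adjusted p = 0.0856), at 259.8% of the DMSO mean, with every EPZ NTG library above both DMSO NTG libraries. APOA5 gave 0.85 ± 0.32 (SE, adjusted p = 0.219) and APOA1 0.61 ± 0.27 (SE, adjusted p = 0.284). The readthrough row APOC4-APOC2 was called higher, 0.88 ± 0.13 (SE, adjusted p = 0.0298), beside 0.39 ± 0.18 (SE, adjusted p = 0.297) for APOC2 alone and 0.70 (adjusted p = 0.0453) for their sum.

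In siMCRS1 cells 0 of 10 members were called for EPZ-6438, against 0.0908% of all genes (0.0838% higher and 0.00699% lower). With an unadjusted p under 0.05 there were 2 members and 1305 of the 14312 genes tested, and edgeR called 0 members. The median was 0.29, beside 0.26 for the hepatocyte markers, and 8 of 10 values were above 0. Groups did not overlap for 4 members (25.2% of all genes tested). APOC3 gave 1.05 ± 0.31 (SE, adjusted p = 0.320), with 283 normalized counts in DMSO and 551 in EPZ-6438, and APOC1 gave 0.37 ± 0.13 (SE, adjusted p = 0.385). Both EPZ siMCRS1 libraries of APOC3 lay above the 3 DMSO siMCRS1 libraries and below every NTG library. For the difference between the drug's effects in siMCRS1 and NTG cells, 0 of 10 members were called, as were 0% of all genes by limma and 0 by edgeR. At an unadjusted p under 0.05 there were 336 genes, of which APOE was the only member. For APOC3 the difference was -0.32 (95% interval -1.28 to 0.64) and for APOA5 -0.15 (-1.15 to 0.85), so that sizeable differences in either direction were not detectable with 2 or 3 libraries.

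Over libraries, APOA5 and APOC3 varied alike in both experiments. The Pearson correlation of their log2 values was 0.97 over the 9 libraries of the INO80 experiment and 0.98 over the 10 of the drug experiment. APOA1 and APOC1 correlated at 0.97 and 0.61, and APOA1 and APOH at 0.88 and 0.86. APOA2 ran against APOC3 in the INO80 experiment (-0.94) and with it in the drug experiment (0.71). The highest correlation of APOB with a member in the INO80 experiment was 0.68, with APOE. These points share groups, libraries and size factors, and the values only describe these libraries. Among 11410 other genes, those most like a member in both experiments (by the smaller of the 2 correlations) were CA5A (r = 0.99 and 0.99), GSTT1 and ACAT2 for APOA5. For APOC3 they were NR1H4 (r = 0.98 and 0.98), C1orf115 and ATP5G1, and for APOA1 FGG (r = 0.92 and 0.97), TF and ARMCX3. For APOH they were COPZ1 (r = 0.93 and 0.92), HADH and TF, for APOC2 SERPINA4 (r = 0.95 and 0.93), SERPINA5 and KANK1 and for APOC1 SERPINA5 (r = 0.91 and 0.91), TST and MGST2. For APOA2 they were PCDHGB1 (r = 0.82 and 0.89), BAIAP2L2 and OGFR, for APOE SP5 (r = 0.87 and 0.89), ATP6AP1 and TFEB and for APOM FAM19A5 (r = 0.89 and 0.88), SLC9A3R2 and ESPN. APOB had the weakest matches, BRPF3 (r = 0.77 and 0.80), SMAD9 and SHANK2.

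The genes around both clusters were described to see whether neighbours moved with the members. On chromosome 11, APOA4, which lies between APOA5 and APOC3 and encodes a protein of chylomicrons and high density lipoprotein, was lower with all siRNAs, with log2 fold changes of -1.41 and -1.23 for the INO80 siRNAs and -1.64 and -1.17 for siMCRS1. Of 9 neighbours tested, siINO80#1 gave 3 higher and 3 lower, siINO80#2 3 higher and 5 lower, and siMCRS1 3 higher and 3 lower in DMSO and 3 higher and 3 lower in EPZ-6438. The shares of all genes called higher and lower were 20.7% and 20.8% for siINO80#1, 26.6% and 28.4% for siINO80#2, and 23.1% and 24.6% in DMSO and 26.8% and 26.9% in EPZ-6438 for siMCRS1. The midpoints of the listed genes lay between -1499.9 and 381.5 kb from that of APOA1. SIDT2 was lower in all 4 (-0.77, -1.20, -2.16 and -2.28), and PAFAH1B2 (0.83, 0.99, 1.20 and 1.36) and TAGLN (1.37, 0.50, 1.31 and 1.25) were higher in all 4. ZPR1, next to APOA5, was lower with siINO80#2 (-2.67, adjusted p = 0.0476) and not called with siINO80#1 (-1.07, adjusted p = 0.440) or siMCRS1. Its libraries varied widely, from 6349.7 to 22671 normalized counts in NTG, 1109.8 to 21198 with siINO80#1 and 1136 to 7309.8 with siINO80#2, and the groups overlapped. SIK3, beyond APOA1, was not called with the INO80 siRNAs and rose by 0.37 and 0.43 with siMCRS1. With EPZ-6438 in NTG cells, CADM1, the most distant of these genes at -1499.9 kb, was the one called, at 0.49.

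On chromosome 19, 11 neighbours were tested, with 4 higher and 1 lower for siINO80#1, 3 higher and 4 lower for siINO80#2, 1 higher and 1 lower for siMCRS1 in DMSO and 2 higher and 4 lower in EPZ-6438. The shares of all genes called are those given for chromosome 11. The readthrough row APOC4-APOC2 was not lower with siINO80#1 (-0.00 ± 0.12 (SE, adjusted p = 0.989)) but was with siINO80#2 (-0.53 ± 0.12 (SE, adjusted p = 0.00375)), and its values with siMCRS1 were -0.01 in DMSO and -0.46 in EPZ-6438 (adjusted p = 0.0109). APOC4 was at or near 0 in all 19 libraries and was not tested. The pseudogene APOC1P1 was lower in all 4 siRNA comparisons (-1.21, -1.98, -1.09 and -1.28) and ZNF296 higher in all 4 (0.94, 0.89, 0.89 and 0.86). TOMM40, next to APOE, gave -0.12 and, called, -0.43 with the INO80 siRNAs.

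**Figure D4:**
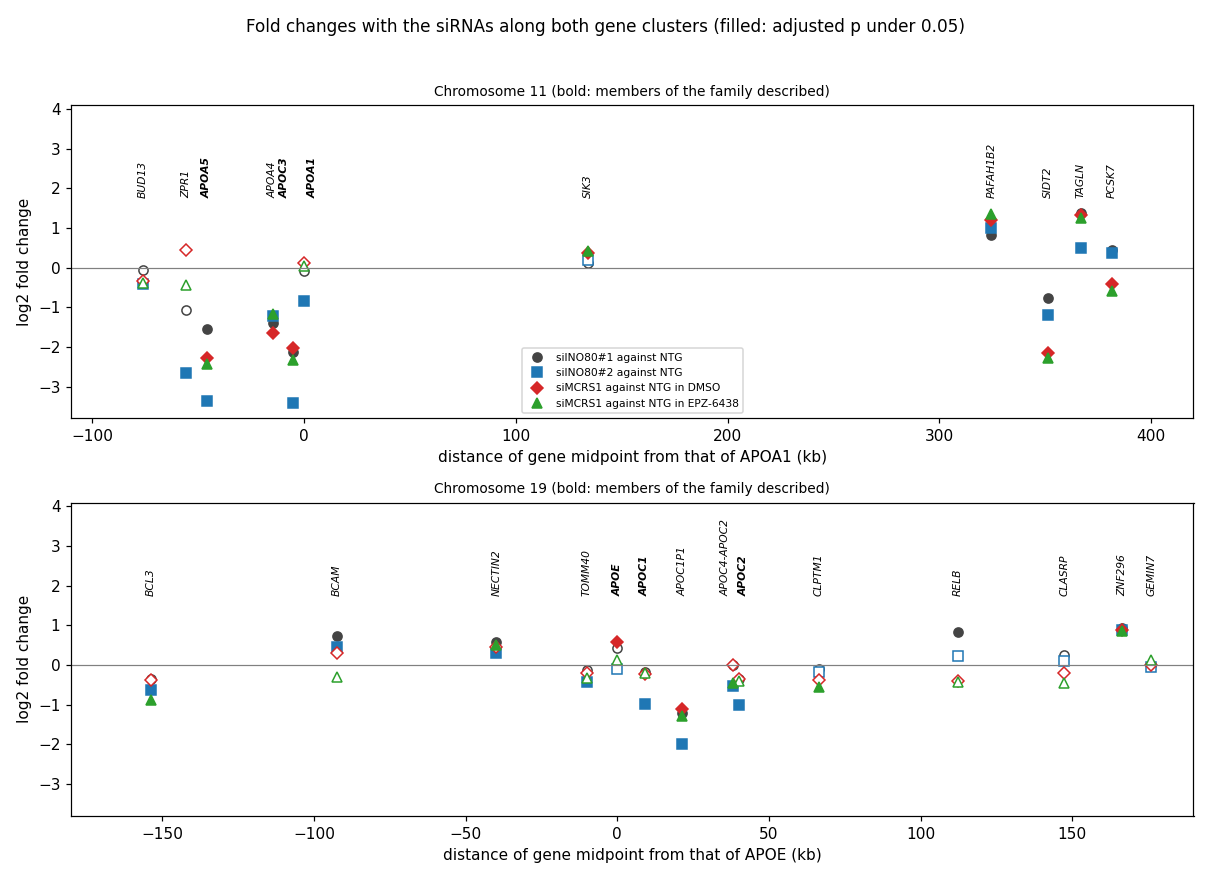
Log2 fold change (vertical axes) in the 4 siRNA comparisons against distance of each gene's midpoint in kb from APOA1 on chromosome 11 (top) and APOE on chromosome 19 (bottom), with filled symbols for adjusted p under 0.05. APOA5, APOA4 and APOC3 are low in all 4 comparisons next to APOA1, which is low with siINO80#2 only, and chromosome 19 members stay above -1.1.

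Other genes of the pathway were taken from lists chosen with earlier results of these data known. All counts of these lists stand beside the shares of all genes called higher and lower, which were 20.7% and 20.8% for siINO80#1, 26.6% and 28.4% for siINO80#2, and 23.1% and 24.6% in DMSO and 26.8% and 26.9% in EPZ-6438 for siMCRS1. Of the apolipoprotein genes outside the 10, 13 were tested, with 0 higher and 6 lower for siINO80#1, 1 higher and 8 lower for siINO80#2, and 1 higher and 6 lower and 1 higher and 7 lower for siMCRS1 in DMSO and EPZ-6438. SAA4, a constitutive serum amyloid A of high density lipoprotein, fell by 1.98 and 2.60 on the log2 scale with the INO80 siRNAs, and APOF, which inhibits lipid transfer, fell by 1.78 with siINO80#2 and 1.67 with siMCRS1 in DMSO. CLU (apolipoprotein J) rose with siINO80#2, 0.85.

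Of 23 genes of lipoprotein assembly and secretion tested, siINO80#1 gave 5 higher and 10 lower, siINO80#2 3 higher and 11 lower, and siMCRS1 7 higher and 9 lower in DMSO and 7 higher and 10 lower in EPZ-6438. Members of this list moved both ways. MTTP, which loads lipid onto APOB, was lower with both INO80 siRNAs (-1.56 and -2.02), as were DGAT1, a triglyceride synthase (-1.68 and -2.17), and SOAT2, which esterifies cholesterol (-1.41 and -1.84). With siMCRS1 in DMSO, DGAT1 was at -2.19, SOAT2 at -2.42 and the liver transcription factor CREB3L3 at -2.26. SAR1B and SURF4, which carry lipoproteins out of the endoplasmic reticulum, were higher in all 4 siRNA comparisons: SAR1B at 1.02, 0.45, 1.12 and 1.36, and SURF4 at 0.86, 0.48, 0.81 and 0.89. APOB was not called in any of these comparisons.

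Among remodelling enzymes and their inhibitors, 3 higher and 5 lower of 14 tested were called with siINO80#1, 3 higher and 7 lower of 14 with siINO80#2, 2 higher and 5 lower of 16 with siMCRS1 in DMSO and 2 higher and 5 lower of 16 in EPZ-6438. ANGPTL8, an inhibitor of lipoprotein lipase, was lowest in each (-2.43, -3.52, -2.69 and -3.44). LIPC, hepatic lipase (-1.61, -1.36, -1.17 and -1.08), and LCAT, which esterifies cholesterol on high density lipoprotein (-0.73, -1.28, -1.66 and -1.86), were lower in all 4. BMP1, the protease that matures APOA1, was higher in all 4 (0.83, 1.29, 1.24 and 1.05).

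Of receptors and lipid exporters, 5 higher and 3 lower of 16 tested were called with siINO80#1, 6 higher and 4 lower of 16 with siINO80#2, 1 higher and 2 lower of 15 with siMCRS1 in DMSO and 3 higher and 3 lower of 15 in EPZ-6438. The fatty acid transporter CD36 fell with the INO80 siRNAs (-1.55 and -2.19), and the sterol exporter gene ABCG8 fell in all 4 (-0.88, -1.26, -1.36 and -1.25).

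Transcription factors and cofactors listed as known at apolipoprotein promoters were called in both directions. Of 35 tested, siINO80#1 gave 6 higher and 11 lower, siINO80#2 5 higher and 20 lower, and siMCRS1 5 higher and 14 lower in DMSO and 3 higher and 16 lower in EPZ-6438, with list medians of -0.22, -0.42, -0.12 and -0.33. The bile acid receptor gene NR1H4 fell with both INO80 siRNAs (-1.93 and -3.16), and CEBPA with siINO80#2 (-1.87). CREB3L3 (-2.26), NR1H3, the liver X receptor alpha (-1.65), and NR0B2, a corepressor (-1.63), fell furthest with siMCRS1 in DMSO, and the same 3 in EPZ-6438. PROX1, a liver homeobox factor, rose with both INO80 siRNAs (0.65 and 0.70). With EPZ-6438 in NTG cells, NR5A2 was the factor called, at 1.42.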

How the data were processed

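RNA-seq of HepG2 cells was analysed in 19 libraries, all of which had a group in the labels. RNA was taken up in TRIzol and libraries were made with a stranded mRNA kit. The submitters' processing notes name kallisto, DESeq2 and GRCh38. Versions, annotation and the use of strand are not given in the sources used here. The deposited values are a signal: normalized counts that the authors made by dividing the counts of each gene by 1 size factor per library, separately for the 2 experiments. Within 0.001 all values were whole multiples of 1 step per library, which returned whole reads for 100% of values. One table names its columns by numbers where the labels give letters, so its libraries carry the column's number or letter and are mapped to groups only. The members, lists, motifs and tests were chosen with earlier results of these data known.

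Values were tested as log2(normalized count + 1) with limma 3.58.1 (trend = TRUE, 1 fit per experiment over its groups) in R 4.3.3, over 14034 genes of the INO80 and 14312 of the drug experiment with a mean of at least 10, and p-values were adjusted by Benjamini-Hochberg over all of them. All 10 members passed this filter in both experiments. A gene was called at an adjusted p under 0.05. Log2 fold changes are on this scale, with limma's SE and 95% intervals, and percentages of control are ratios of mean normalized counts. All members were to be named, and of each list up to 3 called genes each way by size of change with a mean of at least 50. Results for some genes of the lists are not reported here. SAR1B, SURF4, ALB and other list genes are followed across comparisons after their values were seen. Alternatives were the pseudocount, the filter, other scalings, the trend, a replicate block, fits on compared groups only, leaving out each library and, added after seeing the data, edgeR 4.0.16 on the recovered reads. The main fit held no pairing of libraries. From the data alone, NTG and siINO80#1 libraries of the same letter deviated together (r = 0.25, 0.26 and 0.14 between deviations from group means for A, B and C). Values of a fit with the letter as a block are therefore given where they change a call. The test was run on simulated counts with 200 changed genes and the same dispersion for every gene. That setting held far fewer changes than the siRNA comparisons and no library that stood apart, so it does not give the error rate in these data. Gene positions and promoters came from RefSeq tables of GRCh38.p14, and transcript lengths from GENCODE v44. No library pair within a group differed by less than sampling noise (chi-square per degree of freedom 9.45 to 121).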

Additional observations from a re-analysis of the deposited data

How the results depend on the processing

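Of the 25 pairs of a member and a comparison that were called, 17 were called in the same direction under every alternative run, among them all calls of APOC3 and APOA5, and none of the 25 changed sign. Of the 55 that were not called, 15 were called in the same direction under at least 1 alternative. Another 1, APOE with siMCRS1 in EPZ-6438, was called with the opposite sign under quantile normalization. Limits are 2 or 3 libraries a group, 1 siRNA for MCRS1, a split of reads between APOC2 and its readthrough row, and size factors that cannot be checked against spiked RNA. With libraries set to equal totals 6 members and 6992 genes over all were called for siMCRS1 in DMSO. Under quantile normalization 5 members and 6466 genes were called, against 6830 genes in the main fit. For EPZ-6438 in NTG cells the count was 0 with no filter on low values, 0 without the trend and 3 (APOA5, APOC3 and APOE) in a fit of those groups only. Leaving out 1 library gave 2 to 6 members called for siINO80#1 (2 without NTG A or siINO80#1 C, 6 without siINO80#2 C), 2 to 4 for siMCRS1 in EPZ-6438 (2 without EPZ siMCRS1 B) and 0 to 2 for EPZ-6438 in NTG cells. Genes called over all were 4863, 4719 and 6920 in those fits for siINO80#1, against 5833 with every library. For siMCRS1 in EPZ-6438 they were 5070 without EPZ siMCRS1 B, against 7686, and for EPZ-6438 in NTG cells 2 to 71, against 55. Over all genes, EPZ-6438 in NTG cells gave 55 calls, 68 by edgeR, 20 with no filter, 19 without the trend and 128 in a fit of those groups only, and in siMCRS1 cells 13, 18, 4, 7 and 3. The cause was not tested.

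Values that were not called changed sign as follows. Under quantile normalization, APOB was -0.18 for siINO80#2, and -0.30 and -0.0554 for siMCRS1 in DMSO and EPZ-6438. APOA1 was -0.24 and -0.33 there, APOA2 -0.0529 between the INO80 siRNAs, and APOE -0.29 for siMCRS1 in EPZ-6438, which was called (adjusted p = 0.0195). APOM was 0.0191 for EPZ-6438 in siMCRS1 cells, and the difference of drug effects was 0.24 for APOB and -0.0825 for APOC1. With equal totals, APOB was -0.0243 for siINO80#2, and -0.11 and -0.20 for siMCRS1. APOA1 was -0.13 and -0.21, APOE -0.11 for siMCRS1 in EPZ-6438 and APOM 0.0147 for EPZ-6438 in siMCRS1 cells. By edgeR, APOA1 and APOB were -0.00740 and -0.0118 for siMCRS1 in EPZ-6438. Leaving out 1 library gave ranges across 0 for APOA1 with siINO80#1 (-0.21 to 0.0136), with siMCRS1 in DMSO (-0.17 to 0.37) and in EPZ-6438 (-0.19 to 0.25). For APOB they were -0.0703 to 0.31 with siINO80#2, -0.15 to 0.15 with siMCRS1 in EPZ-6438 and -0.0126 to 0.17 for EPZ-6438 in siMCRS1 cells. They were -0.23 to 0.0606 for APOE with siINO80#2, -0.23 to 0.0986 for APOA2 with siMCRS1 in DMSO and -0.24 to 0.21 for APOM with EPZ-6438 in siMCRS1 cells. For the difference of drug effects they were -0.34 to 0.20 for APOA1, -0.56 to 0.26 for APOA5, -0.27 to 0.0314 for APOB, -0.13 to 0.17 for APOC1, -0.19 to 0.0808 for APOC2 and -0.10 to 0.22 for APOH.

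The other pairs of groups in the INO80 experiment gave correlations from -0.08 to 0.13 between same-lettered libraries, although 8 of 9 libraries correlated best with their own letter. The value of 0.134 for siINO80#1 A and siINO80#2 A was close to the 0.135 for NTG C and siINO80#1 C. No clear line thus divides paired from unpaired groups. The fitted block held the letters of all 9 libraries, those of siINO80#2 included. With the replicate block, 6 members were called for siINO80#1 (with APOE, adjusted p = 0.0179, and APOH, 0.0350), 7 for siINO80#2 and 7 between the siRNAs (with APOE, 0.0136), and no other call of a member changed. Over all genes the block gave 6327, 8127 and 3590 calls, against 5833, 7725 and 3096 without it. No block was fitted in the drug experiment, where most columns are numbered and the labels use letters.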
